A study of Danio rerio with 20 samples.

Results

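The 10 normal livers of a zebrafish (Danio rerio) series were each measured on a 2-colour microarray, and the question here is how far gene levels differ among them and which genes rise and fall together. The 10 arrays titled C1 to C10 (normal replicates 1 to 10) were taken, out of 20 arrays in the series. The other 10 arrays hold liver tumors and were not used. Per the labels, the Cy5 channel of each array held liver RNA and the Cy3 channel a reference of normal liver RNA, with 20 µg of total RNA per labelling, from fish kept at 27 °C. The letter C was read as normal liver because the series names 10 arrays of each kind, since the description field gives the same text on both kinds. The labels used here do not name strain, age, sex, feeding or the number of fish behind a sample, so the spread between arrays may be partly technical.

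Unless stated otherwise, each level below is a log2 ratio of the liver to the reference minus the median of its array, called the relative level here, so that 1 unit is a doubling. The direction, liver over reference, is likely from the order of the channels but is not stated. Under the opposite direction all signs would turn, while spreads and relations between genes would not. A ratio shows how a liver differs from the reference and not how abundant a transcript is. It therefore cannot show that a liver marker is present. This holds for the hepatocyte fatty acid binding protein gene fabp10a, which lay above the array median in all 10 livers (0.07 to 2.35). Spots that named 1 gene in the platform annotation were averaged, which gave 5356 named genes among 15780 features.

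A liver sample is a mixture. Hepatocytes make plasma proteins, metabolise sterols, sugars and amino acids and, in egg-laying female fish, produce the yolk protein precursor vitellogenin under oestrogen. Blood, macrophages, bile ducts and vessels lie among them, and in zebrafish the pancreas and the gut run alongside the liver and the gonad lies close by. In bulk RNA, fewer cells of a type and less RNA per cell cannot be told apart.

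The arrays were not all alike. Over the named genes, pairs of arrays correlated at 0.110 to 0.730 (median 0.429). Replicate 8 stood apart, with a mean correlation of 0.194 with the other arrays against 0.385 to 0.517 for each of the remaining 9. For genes whose spread rests on it, the SD without it is given as well. The width of an array's ratios, as the scaled median absolute deviation over its probes, ran from 0.278 on replicate 2 to 0.791 on replicate 1, with replicate 3 next at 0.734. The share of dim spots was 2.55% on replicate 8, 3.03% on replicate 5, 3.90% on replicate 2 and 5.98% to 7.87% on the other 7.

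Spread and agreement between spots were looked at in genes with several spots. The actin gene actb2 was printed 172 times. Its spots had an SD of 0.118 to 0.291 within an array, while the array means ran from 0.45 on replicate 8 to 2.53 on replicate 3 (SD 0.606 between arrays). Among 503 other genes with several probes, the median correlation of probes over the 10 livers was -0.031 in the 186 genes with an SD of up to 0.3. It was 0.294 in the 208 genes with an SD of 0.3 to 0.5, 0.633 in the 96 genes with an SD of 0.5 to 1, and 0.731 in the 13 genes above 1. In the least variable genes, separate probes of 1 gene thus did not follow each other. However, the SD is that of the averaged probes, and probes that disagree lower it. Part of this rise is therefore built in, and it does not show how much of the spread lies between spots. Even among the 13 most variable, 4 had probes that correlated below 0, and most genes named below rest on 1 probe.

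The median SD of a named gene over the 10 livers was 0.407 and the median range from the lowest to the highest liver was 1.33. An SD above 1 was reached by 284 of 5356 named genes (5.3%). The livers contributed unequally. Replicate 8 was the farthest from the median for 62 of the 284 genes, and lay above it for 58 of these. Replicates 3, 9, 10 and 4 were the farthest for 43, 39, 37 and 36 genes, and replicate 2 for 3. The smallest spread belonged to rfng, a fringe glycosyltransferase that acts on Notch (SD 0.07), followed by gnrh3, tspy, tbck and pcloa each with an SD of 0.10. The 2 probes averaged for tspy ran against each other (correlation -0.73).

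Lists of genes differed in how far their members varied and in how closely they kept together. All 5 measured members of the exocrine pancreas list had an SD above 1, as had 5 of 7 in complement and acute phase, 8 of 14 in ovary and oocyte, 4 of 8 in endocrine pancreas, and 3 of 6 in vitellogenesis and oestrogen response. In 8 of the 31 lists no member passed it, among them the erythrocyte (14 genes), ribosomal protein (15) and hepatocyte transcription factor (31) lists. Beside the 5.3% of all named genes, lists of these sizes would hold few such genes, so a count of 0 does not set them apart. The median correlation between pairs of all named genes was 0.0146. It was 0.969 in the exocrine pancreas list, 0.931 among ribosomal protein genes and 0.834 in the ovary list, and every pair in these 3 lists was above 0. Spread and close movement are separate: ribosomal protein genes had a median SD of 0.616, above that of all named genes, with no member past 1. The lists were chosen with earlier results of these arrays known, and their counts describe them without a test.

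**Figure D1:**
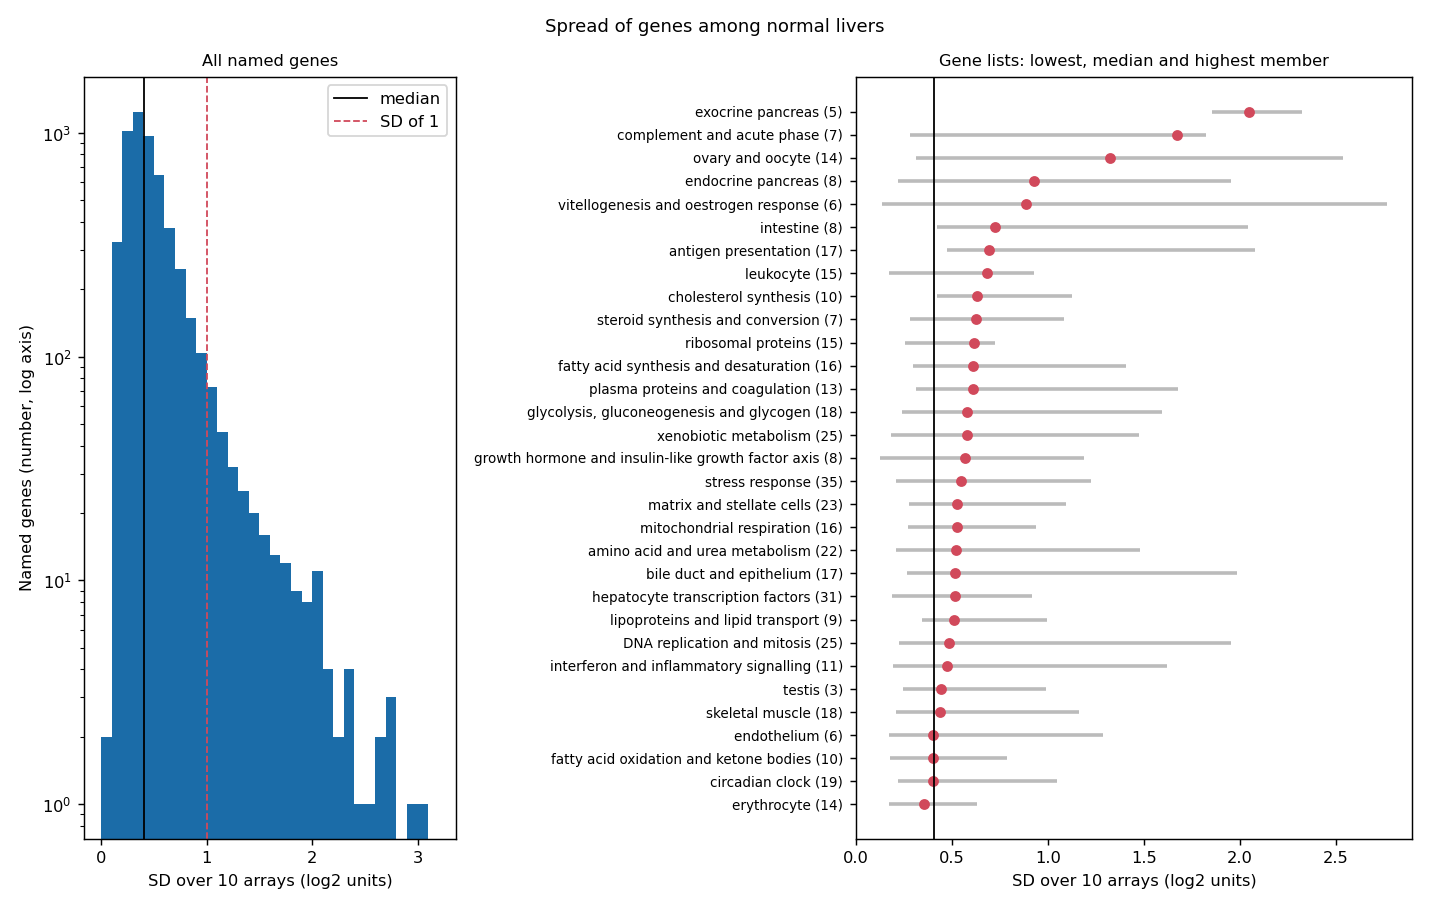
Left, number of named genes (log axis) by SD over the 10 normal livers in log2 units, with a solid line at the median of 0.407 and a dashed line at 1. Right, lowest to highest SD of the measured members of each gene list (grey bars), the list median (points) and the number of members in brackets, with the median of all named genes as a vertical line. The exocrine pancreas list has the highest median and the erythrocyte list the lowest.

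The vitellogenin gene vtg3, which encodes a yolk protein precursor, separated 2 livers from the other 8. It had an SD of 2.77 and ran from -8.17 to -0.21 with a median of -7.35. Replicate 5 stood at -0.21, near the reference, and replicate 8 at -1.98. The other 8 livers lay between -8.17 and -5.95, and the gap between the groups took up 49.9% of the whole range. Other vitellogenin genes had no probe of a single name here.

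The oestrogen receptor gene esr1, whose product switches vitellogenin genes on, was highest on replicate 5 at 0.77, next on replicate 2 at -0.87, and between -3.18 and -1.93 on the other 8. On replicate 8 it stood at -2.0, 1 of those 8. The protease gene nots (nothepsin), known in fish from livers of egg-laying females, stood at 0.74 on replicate 5, 0.13 on replicate 2 and -0.02 on replicate 8, against -3.21 to -2.51 on the remaining 7. Replicate 2 was thus with the high livers for nots and among the low ones for vtg3 (-5.95). Of the other receptors, esr2b had an SD of 0.60, the progesterone receptor gene pgr 0.26 and esr2a 0.14.

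The 2 livers were also set apart by probes that carry no yolk gene name. The probe of slc22a23, named for a solute carrier, had the largest SD of all named genes (3.07). It stood at 0.46 on replicate 5 and -3.12 on replicate 8, against -11.47 on replicate 4 and -6.67, -6.55 and -5.84 on replicates 10, 6 and 2. Signal brightness is not known here, so how exact such low ratios are, and their order among the low livers, was not tested. chst6, a sulfotransferase gene, reached 0.28 on replicate 5 and -3.36 on replicate 8 and was lowest at -9.31 on replicate 7. The paired box gene pax9 stood at 0.22 and -3.24 on these 2 livers and at -7.54 to -5.93 on the other 8. tmem266 (SD 1.84) and npc2.1 (SD 1.36) followed the same order for the 2 highest livers. Pairs among these 5 genes correlated at 0.642 to 0.972. Without replicates 5 and 8 the same pairs ran from -0.56 to 0.864, with a median of -0.165.

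The slope of each of 15779 other features on vtg3 was tested with limma, with p-values adjusted over all of them by the Benjamini-Hochberg method. 4 features passed 0.05 (0.0254%), of which 1 was named. That gene, si:ch73-106k19.5 (adjusted p = 0.0187 with limma), has 2 probes that disagree. One stood at -0.15 on replicate 5, -1.03 on replicate 8 and -8.34 to -7.08 on the other 8, whereas the second stayed between 0.0048 and 1.84. The calls rest on the 2 livers: without replicates 5 and 8, 0 features passed (465 at an unadjusted p under 0.05). The slope of si:ch73-106k19.5 was then -0.12, not told apart from 0 (adjusted p = 0.9999 with limma). Without replicate 5 alone, 180 features passed (1.14% of all features), 66 of them named. The named ones included 8 of 14 ovary and oocyte genes and 7 of 25 DNA replication and mitosis genes, 2 lists that share ccnb1. Also among the named calls were 1 of 18 glycolysis genes and 1 of 31 transcription factor genes. In that fit vtg3 stood at -1.98 on replicate 8 and at -8.17 to -5.95 on the other 8. These calls therefore rest on replicate 8 and do not show that the genes follow vtg3 among the other livers. With the share of dim spots as a covariate, 0 passed, and that share was lowest on replicates 8 and 5.

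Egg coat and oocyte genes were highest on replicate 8. The egg coat gene zp3 ran from -4.45 to 2.60 with a median of -3.00, and its highest value, on replicate 8, was followed by -0.09 on replicate 3 and -1.50 on replicate 2. A second egg coat gene, zp3b, stood at 2.28 on replicate 8 and at -3.10 to -0.18 elsewhere. zar1, a maternal gene of the oocyte, stood at 1.73 on replicate 8 and at -6.17 on replicate 7. The claudin gene cldnd, known from oocytes and early embryos, had the largest SD of the list (2.54), from -6.37 on replicate 4 to 1.80 on replicate 8. The mitotic cyclin gene ccnb1, abundant in oocytes, stood at 2.91 on replicate 8 against -3.82 to -0.76 on the other 9. Without replicate 8 the SD went from 2.15 to 1.36 for zp3, from 1.63 to 1.02 for zp3b and from 1.95 to 1.05 for ccnb1.

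Across the 14 measured genes of the list, the mean relative level was 1.63 on replicate 8. It lay at -0.39 on replicate 3, -0.42 on replicate 2, -1.26 on replicate 1 and -2.35 to -1.57 on the other 6. Replicate 5, the highest for vtg3, stood at -1.57 and was not among the high livers. Without replicate 8 the median SD of the list went from 1.33 to 0.786 and the median correlation between its members from 0.834 to 0.631, so that the order of the remaining 9 livers was still partly shared. zgc:111868, a gene with no described role here and 2 probes, followed the same course, at 3.49 on replicate 8 and -3.86 to -0.26 on the others. Among 25 genes of DNA replication and mitosis the mean was 0.83 on replicate 8 and -0.61 to -0.03 elsewhere. This list shares ccnb1 with the ovary and oocyte list, so the 2 means are not independent. The growing-cell gene stmn1a (1.49), anln for cell division (1.39) and pcna for the replication clamp (1.18) were each highest on replicate 8. Without it the SD went from 1.39 to 1.02 for stmn1a, from 0.81 to 0.48 for anln, from 0.47 to 0.37 for pcna and from 2.24 to 1.31 for zgc:111868. The median r of the DNA replication and mitosis list went from 0.277 to 0.173. Of 3 measured testis genes, the meiotic gene sycp1 stood at 0.70 on replicate 8 and 0.61 on replicate 1, and spata4 and sox9a were highest on replicate 4.

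**Figure D2:**
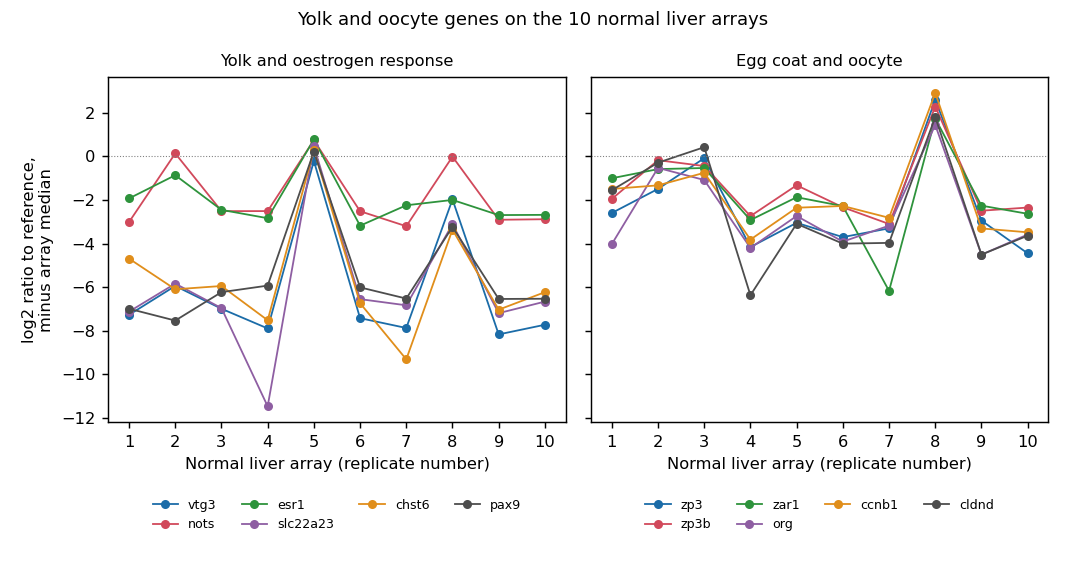
Relative level (log2 ratio to the reference minus the array median) of yolk and oestrogen response genes with 3 genes of the same pattern (left) and of egg coat and oocyte genes (right) on each of the 10 normal livers. Points are single arrays, joined by gene to guide the eye. Each gene of the left group is highest on replicate 5. All of them but esr1 and nots are next highest on replicate 8. The right group peaks on replicate 8.

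Digestive enzyme genes of the pancreas varied the most as a list and moved as 1 block. The trypsin gene prss1 ran from -3.45 on replicate 10 to 3.44 on replicate 3 with a median of 1.54, which is a 119-fold range. It was at 2.2 or more on replicates 1, 2, 3, 7 and 9, at 0.87 on replicate 8, just below 0 on replicates 5 and 6, and at -1.99 on replicate 4. The livers are spread along the range, with no gap above 22.2% of it.

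The carboxypeptidase gene cpa5 ran from -2.97 to 3.05, cpb1 from -3.15 to 2.37, and the lipase gene cel.2 from -3.40 to 3.16. sycn.2, named for the zymogen granule protein syncollin, ran from -3.31 to 2.17. ctrb.3, a chymotrypsin gene outside the list, ran from -3.21 to 3.06. For each of the 6 genes replicate 10 was the lowest liver and replicate 4 the next, and replicates 7 and 9 were among the 3 highest.

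The fit on prss1 found 76 of 15779 features (0.482%), 45 that rose with it (0.285%) and 31 that fell as it rose (0.196%), by limma with Benjamini-Hochberg adjustment. All 4 other measured pancreas genes of the list rose, cel.2 with a slope of 0.86 and an r of 0.982 (adjusted p = 1.70e-05 with limma). cpa5 and cpb1 followed (both adjusted p = 0.000148 with limma), then ctrb.3 (adjusted p = 0.000835) and sycn.2 (adjusted p = 0.00129). Of the 21 named genes called, 15 rose with prss1. Besides the enzymes these included apoa1a for an apolipoprotein of plasma (slope 0.38) and the sulfotransferase gene sult2st1 (0.30). They also included the antizyme gene oaz1a (0.27) and the stress kinase gene sgk1 (0.45). The 6 that moved against it included tbr1b, a transcription factor gene of the brain (slope -0.33), and rrbp1a, for a ribosome binding protein of the endoplasmic reticulum (-0.47).

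The count depends on which livers are kept, at the high end as well as the low end. Without replicates 4 and 10, 15 features passed, 1 of the 4 pancreas genes among them (cel.2), although r stayed between 0.837 and 0.959 for the 5 enzymes. Without replicate 10 alone 138 passed, of which 45 were among the 76, and without replicate 3 or 4 the counts were 34 and 37. After each array was scaled to the same width, 35 passed, and with dim share as a covariate 49. Of the 22 named slopes called on vtg3 or prss1, that of cel.2 alone passed under all alternatives run. The slopes of apoa1a and sgk1 lost their call in 9 and 12 of the alternatives, and those of tbr1b and rrbp1a in 2 and 3.

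Hormone genes of the pancreatic islet varied somewhat less than the enzyme genes and followed a partly different set of livers. The insulin gene ins ran from -1.47 to 3.36 with a median of 0.28 and was high on replicates 6, 7, 8 and 9 (2.74, 3.02, 1.82 and 3.36). The other 6 livers lay at 0.84 or below. The glucagon gene gcga ran from -1.15 to 2.99, the somatostatin gene sst2 from -2.45 to 2.94 and scg3, for a secretory granule protein, from -2.39 to 2.36. Their pairs with each other and with ins correlated at 0.819 to 0.949. These 4 genes were chosen after their values were seen, and the 8 measured members of the endocrine pancreas list had a median SD of 0.927 and a median r of 0.0143, so the list did not move as a whole.

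Replicate 6 was high for the islet genes (mean of the 4 genes 1.76) and low for the 6 enzyme genes (-0.61). Replicate 3 was the reverse, with -0.85 and 2.24. Replicates 7 and 9 were high for both sets and replicates 4 and 10 low for both. The islet transcription factor genes neurod1 (SD 0.22) and pdx1 (0.38) had spreads below the median of all genes, and pdx1 was highest on replicate 3 at 0.94.

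Intestinal genes were highest on replicate 3. The fatty acid binding protein gene fabp2 of absorptive cells ran from -2.48 to 3.27 with a median of 0.47. It was at 3.27 on replicate 3, 2.43 on replicate 8 and 1.67 on replicate 9, and at -2.08 or below on replicates 4, 5 and 6. vil1, for the villin of microvilli, stood at 3.3 on replicate 3 and at -1.24 on replicate 10. The peptide transporter gene slc15a1b stood at 1.21 on replicate 3. Several genes outside the list correlated with these, and 2 of them are described here. plac8.1 had an SD of 2.70 and ran from -4.51 on replicate 4 to 4.49 on replicate 3. olfm4.2 was highest on replicate 7 (2.87).

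The list of intestine genes held together less well as a whole (median r 0.461 over 8 genes). In it agr2, a gene of secretory cells, stood at -0.98 on replicate 1 and was highest on replicate 10 at 1.19. When the 284 genes of SD above 1 were grouped by correlation (average linkage, groups joined at r of 0.6), 26 genes fell in 1 group that held prss1, cpa5, cel.2, sycn.2 and cpb1 together with fabp2, vil1, plac8.1 and olfm4.2, and also sgk1, igfbp1a and arg2. Its mean was 2.43 on replicate 3 and -1.93 on replicate 10. ins was in none of the 12 groups of 6 or more genes.

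**Figure D3:**
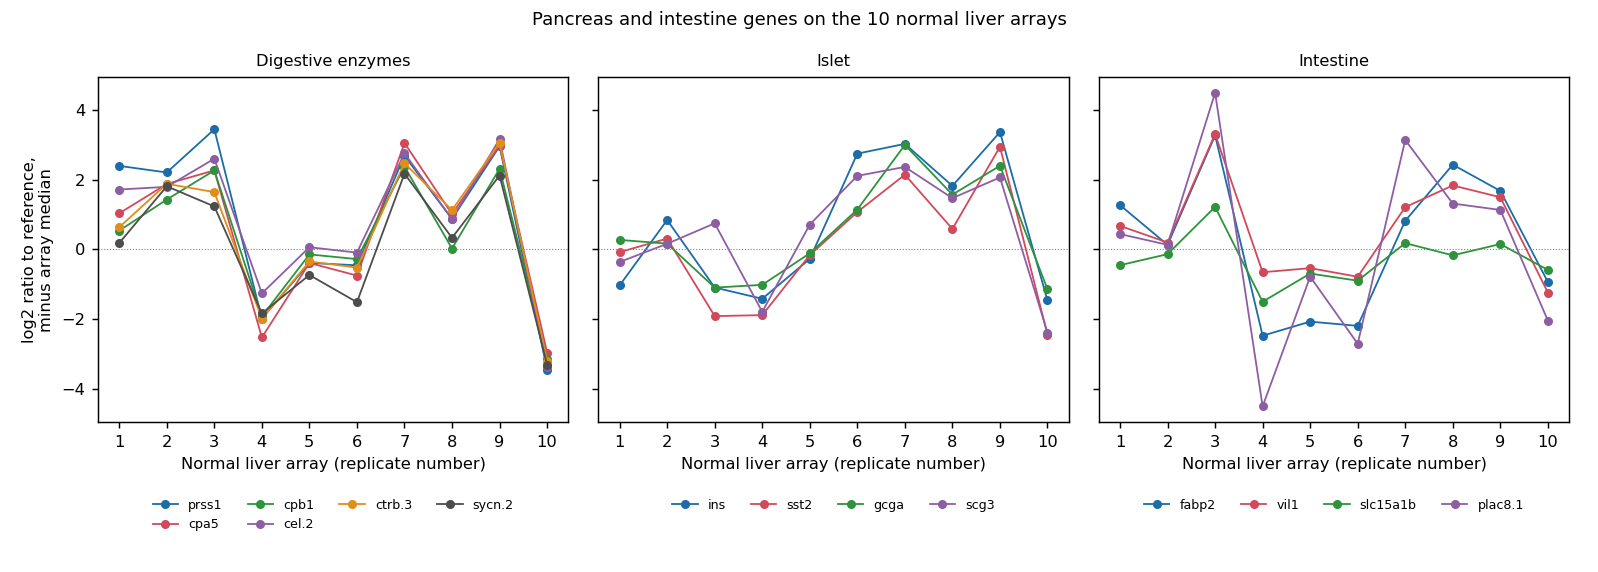
Relative level (log2 ratio to the reference minus the array median) of genes of digestive enzymes (left), islet (middle) and intestine (right) on each of the 10 normal livers, 1 point per array. The enzyme genes nearly coincide and fall on replicates 4 and 10, the islet genes are high on replicates 6 to 9, and the intestinal genes peak on replicate 3.

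A few MHC class II and leukocyte genes kept close to each other, while the antigen presentation list as a whole did not (median r 0.159 over 17 genes). The invariant chain gene cd74a, whose product accompanies MHC class II molecules, lay above the array median in all 10 livers. It ran from 0.40 on replicate 8 to 3.19 on replicate 7 with a median of 2.11. Replicates 3, 5 and 6 were next to replicate 7, and replicates 8, 10, 9 and 4 lay at 1.26 or below.

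laptm5, a lysosomal gene of blood cells, ran from -0.24 on replicate 8 to 2.61 on replicate 7. The leukocyte plastin gene lcp1 ran from -0.04 on replicate 8 to 2.06 on replicate 6. mpeg1.1, a macrophage gene, was highest on replicate 7 at 1.93 and lowest on replicate 1 at -1.20. The neutrophil peroxidase gene mpx was highest on replicate 5 at 2.25 and spi1b, a myeloid transcription factor gene, on replicate 6 at 2.34. The mean of 15 leukocyte genes was 1.08 on replicate 7, 0.99 on replicate 6 and -0.04 on replicate 8, and the median SD of 0.687 was above that of all named genes.

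The fit on cd74a found 0 of 15779 features (0%) by limma after adjustment, with 1359 at an unadjusted p under 0.05. The closest were calm1b for calmodulin (r 0.95, adjusted p = 0.102 with limma), plekhf1, tspan34b, laptm5, glud1a and pfn1 for profilin, with adjusted p-values of 0.102 to 0.167. Each stayed at an r of at least 0.851 without the 2 livers farthest from the median of cd74a. After each array was scaled to the same width, 5 features passed. The iron exporter gene slc40a1 had one of the 4 lowest correlations with cd74a (r -0.799, adjusted p = 0.269 with limma), and stood at 3.97 on replicate 8 and 2.68 on replicate 10 against -1.36 to 1.03 on the other 8. Without these 2 livers, the farthest from the median of cd74a, r was -0.459, and without replicate 8 the SD of slc40a1 went from 1.77 to 1.26.

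MHC class I genes, which present peptides of the cell's interior, did not move as 1 group. mhc1uba had the largest SD of the antigen presentation list (2.08). It stood at -3.18 on replicate 3, -0.40 on replicate 2 and 0.59 on replicate 1, and at 2.25 to 4.02 on the other 7. mhc1ufa was low on other livers, at -2.12, -2.10 and -1.88 on replicates 4, 6 and 7, and reached 1.69 on replicate 10. One of 2 probes of mhc1uda shared that pattern, at -4.45, -4.28 and -3.70 on replicates 4, 6 and 7 and -0.35 to 1.39 on the other 7, and the second probe did not follow it. With its probes averaged, mhc1uda correlated with mhc1ufa at 0.868. Genes of this family are alike in sequence, so how far a spot also measures a relative is unknown. b2ml, for a light chain of class I, was at -2.09 and -1.99 on replicates 3 and 1 and at -0.88 to 1.21 elsewhere, while b2m was highest on replicate 7 at 1.82. b2ml and mhc1uba were both lowest on replicate 3 (r 0.615).

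Complement C3 genes, which encode the central protein of the complement cascade made by hepatocytes, were low on the same livers as mhc1uba. c3a.2 stood at -2.95 on replicate 3 and -2.24 on replicate 1, at 0.21 on replicate 2 and at 0.73 to 2.63 on the other 7. c3a.3 stood at -2.59, -2.18 and -0.82 on replicates 3, 1 and 2, and c3a.1 at -3.97, -2.01 and -0.64. On replicate 9 c3a.1 stood at -0.99, below its level on replicate 2. The 3 genes correlated at 0.849 to 0.956 with each other. They are neighbours and alike in sequence, so their values are not independent. Replicates 1 and 3 have the widest ratios of the 10 arrays. With every array scaled to the same width, the SD of c3a.2 went from 1.75 to 1.44, that of c3a.3 from 1.78 to 1.57 and that of mhc1uba from 2.08 to 1.93.

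Other genes of the acute phase and of interferon and inflammatory signalling ran apart from C3. grna.1, a granulin gene, stood at 5.51 on replicate 7 and 5.06 on replicate 6, at 3.41 on replicate 3 and at 0.35 to 2.78 on the other 7. socs3a, an inhibitor of cytokine signalling, stood at -3.65 on replicate 4 and reached 2.27 on replicate 5. stat2, an interferon signal transducer, stood at 1.02 on replicate 9 and at -0.30 or below on the other 9. The median r over the 7 complement and acute phase genes was -0.0205, so the list did not move as a whole.

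**Figure D4:**
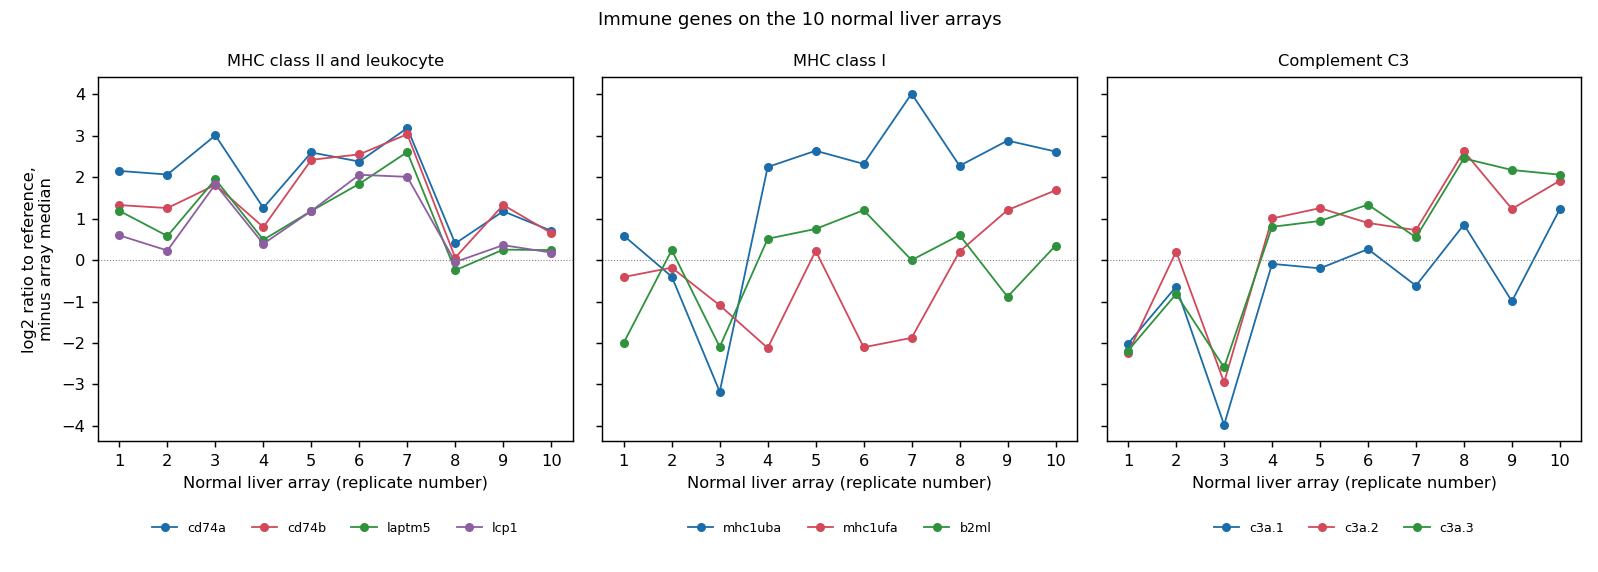
Relative level (log2 ratio to the reference minus the array median) of MHC class II and leukocyte genes (left), MHC class I genes (middle) and complement C3 genes (right) on each of the 10 normal livers, 1 point per array. Of the left group, cd74a, cd74b and laptm5 are highest on replicate 7 and lcp1 on replicate 6, and each is lowest on replicate 8. The C3 genes and mhc1uba are low on replicate 3.

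Erythrocyte genes had the lowest median SD of the lists. The adult globin genes hbaa1 and hbba1 kept in step (r 0.985), hbaa1 from 0.05 on replicate 5 to 1.85 on replicate 3 and hbba1 from 0.13 to 1.78. Replicates 3, 7 and 8 were the 3 highest for both. The fit on hbaa1 found 0 of 15779 features (0%) by limma after adjustment (1006 at an unadjusted p under 0.05), with hbba1 at an adjusted p of 0.238 with limma. The 14 genes of the erythrocyte list had a median SD of 0.357 and a median r of 0.0701. cahz, the red cell carbonic anhydrase gene, was highest on replicate 4 (1.1) where hbaa1 stood at 0.92, so the list did not follow globin.

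Among matrix genes, the collagen genes col1a1a and col1a2 and the matricellular gene sparc were highest on replicate 3, at 3.46, 3.15 and 3.08. Their lowest values were -0.42 on replicate 4, 0.13 on replicate 2 and -0.60 on replicate 10, in that order of genes. Their pairs correlated at 0.793 to 0.847, in a group chosen after its values were seen. The 23 measured matrix genes had a median r of 0.138. Their mean was highest on replicate 6 (0.60), with 0.57 on replicate 3. tgfbi, a matrix gene induced by TGF-beta, was highest on replicate 9 at 1.54. The epithelial claudin gene cldn3c ran from -0.01 on replicate 9 to 3.44 on replicate 7. cldn7b, which has the largest SD of the bile duct list (1.98), owes it to 1 of 2 probes, at -10.21 on replicate 9 where the second stood at -0.76. The muscle gene mylpfa ran from -1.83 to 0.32, and the mean of 18 muscle genes from -0.20 on replicate 8 to 0.64 on replicate 1.

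Metabolic genes varied in small groups. pck1, for the rate-limiting enzyme of gluconeogenesis, ran from -4.03 on replicate 10 to 1.03 on replicate 8 with a median of -1.77. Replicate 4 was nearly as low as replicate 10 at -3.89, and replicate 9 next to the highest at -0.06. igfbp1a, for a growth factor binding protein that is raised by fasting in fish, had a similar order at the ends, with 0.14 on replicate 8, -0.07 on replicate 9 and -3.47 on replicate 4. sgk1 was likewise low on replicates 10 and 4 (-3.16 and -2.64). Grouped by correlation, pck1 fell with zp3, zp3b, ccnb1 and cldnd in a group of 52 genes with a mean of 1.95 on replicate 8. By contrast, igfbp1a and sgk1 fell in the group of prss1. igf2b was highest on replicate 10 (3.2) and lowest on replicates 1 and 8 (0.39 and 0.40).

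Sterol genes were high on replicate 7. cyp51, a lanosterol demethylase gene, stood at 1.47 on replicate 7 and at -2.48 to -0.03 on the other 9. hmgcs1, for the enzyme that makes HMG-CoA, stood at 0.90 on replicate 7 and fdps, for farnesyl diphosphate synthase, at 0.65. Together with acat2 (0.44) the 4 genes had a mean of 0.86 on replicate 7 and of -2.21 to -0.51 on the others, and their pairs correlated at 0.651 to 0.893. The mean of the 10 cholesterol genes measured was 0.0078 on replicate 7 and -1.46 to -0.35 on the other 9. insig1, a brake on this pathway, was not highest there, with -1.10 on replicate 2 and -1.64 on replicate 7.

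Fatty acid genes did not move as 1 group (median r 0.0373 over 16 genes). elovl6, a fatty acid elongase gene, ran from -3.73 on replicate 5 to 0.12 on replicate 9 and stood at -3.57 on replicate 7, where sterol genes were high. acaca, for the first enzyme of fatty acid synthesis, was highest on replicate 9 (1.54) and lowest on replicates 1 and 10 (-2.43 and -2.01). The desaturase gene fads2 stood at -3.46 on replicate 6 and stayed between -0.77 and 0.26 on the other 9. apoa1a was lowest on replicate 10 at -2.33, and 9 lipid transport genes together had a mean of -0.70 there.

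Of the xenobiotic genes, cyp2k6, a cytochrome P450 gene, stood at 0.65 on replicate 5 and at -4.68 to -2.08 on the other 9. Replicate 5 is also the liver with the highest vtg3. adh8a, an alcohol dehydrogenase gene, lay above the array median in all 10 livers, from 1.21 on replicate 6 to 2.99 on replicate 2. The fit on adh8a found 0 of 15779 features (0%) by limma after adjustment, with 833 at an unadjusted p under 0.05 and 3 after scaling. The closest gene was tent5ba (r 0.919, adjusted p = 0.822 with limma). odc1, the first enzyme of polyamine synthesis, reached 3.36 on replicate 7 against -1.76 to 1.59 on the other 9, and the arginase gene arg2 ran from -2.07 on replicate 10 to 1.37 on replicate 9. tcnba, for a vitamin B12 carrier, stood at 5.75 on replicate 3 and 4.27 on replicate 7, with 2.41 on the next liver.

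Ribosomal protein genes kept closely together. The mean of 15 genes was 1.04 on replicate 3, 0.60 on replicate 7 and -1.0 on replicate 4, with the other 7 between -0.40 and 0.24. rplp0 ran from -1.32 to 1.39, rpl18 from -0.88 to 1.5 and rpl23 from -1.32 to 1.13. Scaling of the arrays took the median SD of the list from 0.616 to 0.489 and the median r from 0.931 to 0.878. Mitochondrial genes had their highest mean on the same liver (0.62 on replicate 3) with a looser bond (median r 0.394 over 16 genes).

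All 4 measured endoplasmic reticulum chaperone and folding genes of the stress list were highest on replicate 9, a grouping made after the values were seen. pdia6, a disulfide isomerase gene, stood at 0.94 on replicate 9 and at -2.42 to -0.48 elsewhere. dnajb11 stood at 0.02 on replicate 9 and calr3a at 0.49, and these 3 genes correlated at 0.806 to 0.974. The calnexin gene canx stood at 0.15. p4hb, a disulfide isomerase gene outside the list, ran the other way and was lowest on replicate 9 at -3.28. Clock genes did not move as a list (median r 0.0226 over 19 genes), but per3, a period gene, stood at -2.02 on replicate 9 against -0.33 to 1.54 on the other 9. nfil3-5, a repressor gene of the clock's output, ran from -2.40 on replicate 4 to 0.92 on replicate 10.

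Steroid, growth and sugar genes added single livers. hsd17b1, a gene that interconverts oestrogens, ran from -2.54 on replicate 4 to 1.2 on replicate 8, and cyp17a1, of steroid hormone synthesis, was lowest on replicate 4 at -2.21. The lactate dehydrogenase gene ldha was lowest on replicates 10 and 4 (-2.59 and -2.09), as were pck1 and the pancreas enzymes. The insulin receptor gene insra was lowest on replicate 1 at -2.40 and highest on replicate 5 at 0.55. cbsb, of cysteine synthesis, ran from -1.97 on replicate 10 to 1.42 on replicate 7. gclm, for a subunit of the enzyme that starts glutathione synthesis, was highest on replicate 1 and stood at -1.65 and -1.60 on replicates 4 and 10. ldha, pck1, gclm and the enzyme genes thus had their 2 lowest values on replicates 4 and 10.

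Genes of hepatocyte transcription factors had SDs of 0.192 to 0.917 over 31 genes, with a median of 0.515, above the 0.407 of all named genes, and a median r of 0.0856. The widest was the retinoid receptor gene rxrba, at 1.88 on replicate 8 and -1.34 to 0.20 on the other 9. Its 2 probes ran against each other (correlation -0.514), and without replicate 8 its SD went from 0.92 to 0.52. The vitamin D receptor gene vdra ran from -1.51 on replicate 9 to 1.31 on replicate 4, and the glucocorticoid receptor gene nr3c1 from -1.32 on replicate 1 to 1.32 on replicate 8. The 3 probes averaged for nr3c1 hardly followed each other (correlation 0.0502), and its SD was 0.49 without replicate 8, in place of 0.71. The courses of rxrba and nr3c1 are therefore uncertain. Of vessel genes, robo4 stood at -3.80 on replicate 4, while kdrl (SD 0.43) and tie1 (SD 0.49), both receptors of endothelial cells, stayed near the median spread. Among plasma protein genes, the retinol carrier gene rbp4 ran from -2.55 on replicate 7 to 0.25 on replicate 9.

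Several of the largest spreads belonged to genes outside these lists, most of them measured by 1 probe. si:dkey-208k4.3 stood at -7.87 on replicate 7 and -6.74 on replicate 6 and stayed at -2.71 to 0.59 on the other 8. si:ch211-77g15.32 went from -4.20 on replicate 6 to 4.34 on replicate 3. retsatl ran from -5.87 to 1.91, atp1b3a, for a sodium pump subunit, from -5.90 to 4.02, and acyp1 from -5.08 to 3.54. b3gnt2b, a glycosyltransferase gene, stood at -7.20 on replicate 7 and -4.40 on replicate 9. For wu:fb63a08, 1 of 2 probes stood at -9.18 to -6.22 on replicates 7, 8, 9 and 10 and at -1.50 to 1.2 on the other 6, while the second stayed between -1.01 and 2.80.

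**Figure D5:**
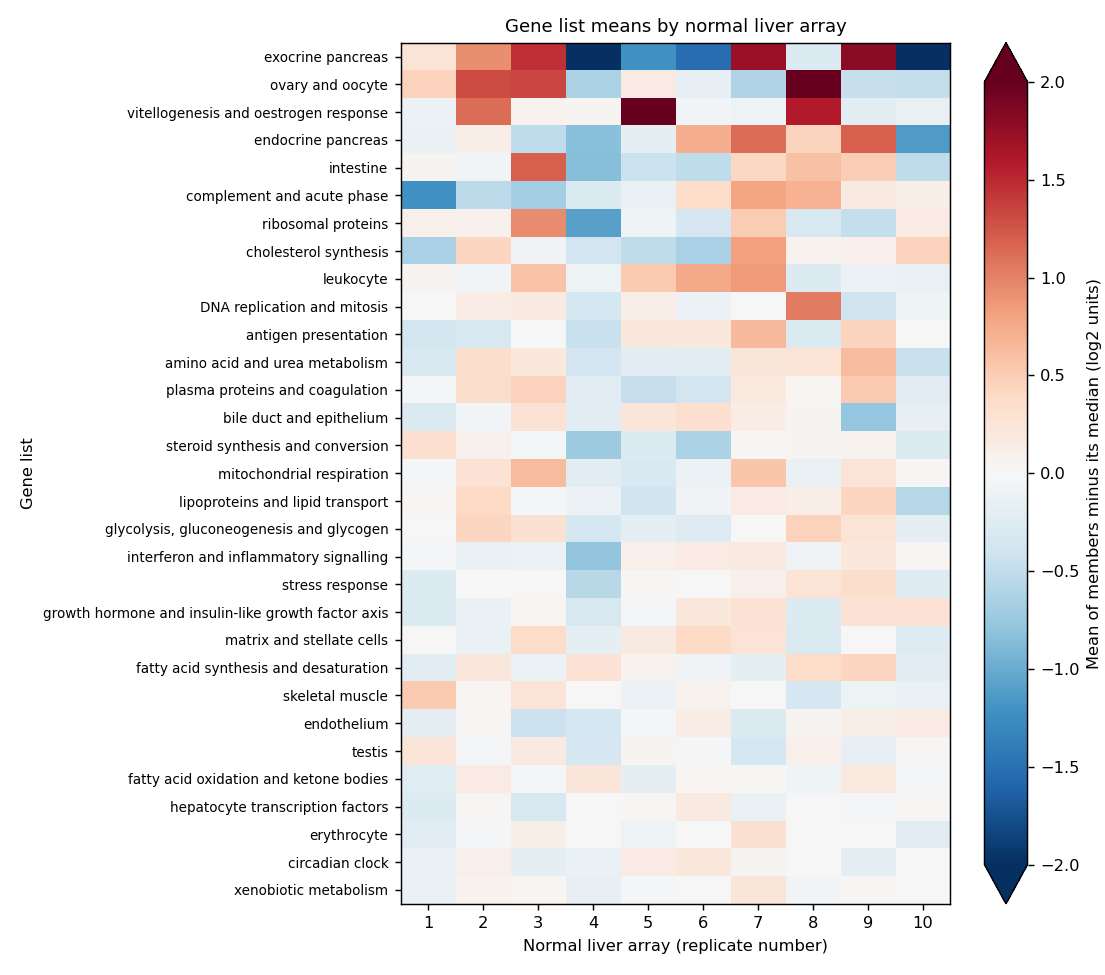
Mean relative level of the measured members of each gene list on each of the 10 normal livers, minus the median of that mean over the livers, in log2 units. Red is above and blue below the median, colours saturate at -2 and 2, and lists are ordered by the SD of their mean, the widest at the top. Ovary genes stand out on replicate 8, yolk genes on replicate 5 and pancreas genes on replicates 4 and 10.

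To ask whether these axes were linked, 11 genes that stand for them were paired (vtg3, esr1, zp3, prss1, cd74a, hbaa1, mylpfa, adh8a, fabp10a, insig1 and pcna). Of 55 pairs, 0 passed 0.05 after Benjamini-Hochberg adjustment of two-sided permutation p-values (100000 resamples), by Pearson's r or by Spearman's rho. At an unadjusted p under 0.05 there were 4 pairs by Pearson's r, and these and 4 more by Spearman's rho. Each of the 8 held at least 1 gene whose livers fell apart by more than 33.3% of its range. For that reason no r over all 10 livers is given. The limit was set after the values were seen. It was passed by vtg3, esr1, zp3, adh8a and fabp10a, so most of the 55 pairs hold such a gene and the 8 are not set apart by it. Without the 2 livers farthest from the median of the first gene, r was 0.784 for vtg3 and esr1 (exact permutation p = 0.0379 over 8 livers, unadjusted). Replicate 2 was the highest of these 8 livers for both genes (-5.95 and -0.87). For prss1 and fabp10a r was 0.513 (exact permutation p = 0.191) and for adh8a and insig1 0.464 (exact permutation p = 0.246). For zp3 and pcna r was 0.349 (exact permutation p = 0.396). These were each over 8 livers and unadjusted. Of prss1 and fabp10a only fabp10a fell apart, and its own 2 farthest livers, replicates 1 and 2, were kept. adh8a had 6 livers above its gap and 4 below, so leaving out 2 did not close it. Of the 4 pairs that Spearman's rho added, r was 0.768 for zp3 and prss1 (exact permutation p = 0.0235) and 0.641 for esr1 and pcna (exact permutation p = 0.0851). It was 0.557 for zp3 and mylpfa (exact permutation p = 0.153) and 0.544 for vtg3 and pcna (exact permutation p = 0.167), likewise over 8 livers and unadjusted. Pairs outside the 8 also reached such values over 8 livers, such as cd74a and pcna (0.806) and zp3 and fabp10a (0.788). The number of arrays limits the precision, and a pair that missed the threshold is not shown to be unrelated.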

How the data were processed

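The authors deposited 1 table of log2 ratios for 20 two-channel arrays of 16512 probes, with 0 missing values. Per the labels, Cy5 marked the liver sample and Cy3 normal liver RNA, with no dye swap. How background, filters and normalization were handled is not given in the sources used here. Base 2 was inferred, since the most repeated values lie apart by log2 ratios of small whole numbers. The arrays differ in width, which can change a spread.

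The 10 normal arrays were used. Of the probes, 6088 (36.9%) had 1 gene symbol, 75 several and 10349 none, and 6019 were found by Entrez number in RefSeq genes (GRCz12tu, names only), which updated 1 symbol. Probes of 1 symbol were averaged and each array's median was subtracted. Signal brightness is not in the table, so dim spots were counted as values that, after 1 constant per array, fell within 0.00011 of such a ratio (whole numbers up to 10).

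SD, range and pairwise correlation describe genes and 31 lists (446 genes measured of 1280). Slopes on vtg3, cd74a, prss1, hbaa1 and adh8a were tested in R 4.3.3 with limma 3.58.1 (lmFit, then eBayes; Benjamini-Hochberg over 15779 features, threshold 0.05). On simulated data with 15779 features drawn independently of each other, slopes of 1 residual SD were recovered at 8% to 12% for the 5 genes. Slopes of 2 residual SDs were recovered at 76% to 86% and of 4 at 100%, with 5 to 11 false calls. The features given slopes of 1, 2, 4 and 8 residual SDs were adjusted together, which eases the threshold beside a fit with few true slopes. The recovered shares therefore do not carry over to such a fit. In the data, hbba1 followed hbaa1 at an r of 0.985 and still missed the threshold (adjusted p = 0.238 with limma). A fit that called 0 features could thus miss most slopes of 1 residual SD, and also stronger ones. The remaining work ran in Python 3.11.15 with pandas 2.3.3, scipy 1.17.1, numpy 2.4.6 and matplotlib 3.10.9.

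Genes were named by rule: the 15 largest and 5 smallest SDs, the 3 largest of each list, 11 paired genes, and for each of the 5 fitted genes the 6 highest and 4 lowest correlations among genes with an SD of at least 0.5. This gave 157 genes. Further list members, npc2.1, zp3a.1 and the small groups whose correlations are given were chosen after their values were seen. The livers, lists and fitted genes were chosen with earlier results of these data known.

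Alternatives were no centring, scaling of each array to 1 width, dim share as a covariate, the median of probes, single probes, a robust SD, and leaving out each array or the 2 farthest.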

Additional observations from a re-analysis of the deposited data

Results flagged for a closer look

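In 12 of the 159 genes named (7.55%), 1 liver lay farther from the nearest of the other 9 than Dixon's 95% critical value allows. Chance gives about 1 gene in 20, and 13% of all named features met the same rule, so the named genes were not unusual in this. Of the 12 genes, 3 stood apart on replicate 8, the liver that correlated least with the others: ccnb1, a mitotic cyclin gene, at 2.91, rxrba, a retinoid receptor gene whose 2 probes disagree (correlation -0.514), at 1.88, and zgc:111868 at 3.49. On replicate 5, the liver with the highest vtg3, cyp2k6 stood at 0.65 and lpar2b, a lysophosphatidic acid receptor gene, at 0.50. On replicate 9, cldn7b stood at -5.49, by 1 of its 2 probes, and per3 at -2.02. On replicate 4, socs3a stood at -3.65, the testis list gene sox9a at 0.38, and pcloa, a gene of the smallest spread, at 0.24. On replicate 6 the desaturase gene fads2 stood at -3.46, and on replicate 1 the Notch ligand gene jag2b at -4.58. Without replicate 1, the SD of jag2b went from 1.51 to 0.249. Why single livers stand apart was not tested.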

How the results depend on the processing

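No paired analysis was possible because only normal arrays were used, so no group shares replicate numbers with another. The number of features called on vtg3 went from 4 to 0 with dim share as a covariate and to 0 without replicates 5 and 8, and ran from 1 to 180 with each array left out in turn. Replicates 5, 6 and 9 each moved it by over 1.5 times (180, 1 and 2). On prss1 it went from 76 to 35 after scaling, to 49 with dim share as a covariate, to 15 without replicates 4 and 10, and ran from 34 to 138 with each array left out. Replicates 3, 4, 5, 6, 9 and 10 each moved it by over 1.5 times (34, 37, 42, 44, 49 and 138). Scaling gave 5 features on cd74a and 3 on adh8a, in place of 0, and on hbaa1 the count stayed at 0 under all alternatives run. The slope of si:ch73-106k19.5 on vtg3 changed sign to -0.1157 without replicates 5 and 8, where it was not told apart from 0 (adjusted p = 0.9999 with limma). The cause of these changes was not tested, except that leaving out arrays leaves fewer samples. The number of genes with an SD above 1 stayed within 1.5 times of 284, and the number of pairs past the threshold stayed at 0, under all alternatives run. Scaling as an alternative for the lists and small groups, and leaving out replicate 8, or 5 and 8, for the small groups, were chosen after seeing the data. Without replicate 10 the median SD of the exocrine pancreas list was 1.53 in place of 2.05, and without replicate 3 that of ribosomal proteins 0.496 in place of 0.616.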
